A study of Mus musculus with 14 samples.

Results

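The cell cycle and mitosis genes followed here were 45 genes picked by symbol from the 55228 gene symbols of the deposited count tables. All 45 were present in both tables and in all 14 libraries, and all 45 passed the filter on low counts in each of the 5 comparisons. They were read in 5 role groups: 10 genes of DNA replication (the S phase genes), 8 cyclins and kinases of G1, 20 genes of mitosis, 4 transcription factors of the cell cycle and 3 inhibitors of cyclin-dependent kinases.

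The libraries were made from the epithelium of the bladder and the pelvic urethra of CD-1 wild-type, untreated female mouse embryos. There were 3 libraries each of bladder E18.5 and urethra E18.5 and 4 libraries each of bladder E14.5 and urethra E14.5, where E gives the embryonic day counted from noon of the plug as E0.5. The epithelium was peeled from the mesenchyme by forceps after trypsin, and the females of a litter were pooled into 1 sample per tissue, so a library holds several embryos and not 1 animal. The study set out to find genes that differ between the epithelial compartments of the lower urinary tract.

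A dividing cell commits to replication in G1 when D cyclins with Cdk4 and Cdk6, and then E cyclins with Cdk2, inactivate the retinoblastoma proteins and release E2F factors. E2F factors turn on the genes that copy DNA, whereas a later wave, driven by B-Myb, FoxM1 and the MuvB core complex, turns on the genes that build the spindle, separate the chromosomes and divide the cell. Inhibitors of the Cip/Kip and Ink4 families bind the kinases or their cyclins and hold cells in G1. In the mouse bladder the epithelium divides through fetal life and becomes almost quiescent in the adult.

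Library totals lay between 21.1 and 36.8 M counts. Levels are CPM, counts scaled to 1000000 of the effective library size, set by the trimmed mean of M values over all 14 libraries. The 7 pan-epithelial genes checked (such as Epcam and Cdh1, which hold epithelial cells together) were present in every library, with summed levels of 2564 to 3408 CPM in bladder E18.5, 3596 to 4221 CPM in urethra E18.5, 3941 to 4696 CPM in bladder E14.5 and 1657 to 3656 CPM in urethra E14.5. RNA of other cell types was present too, and unequally. The 15 mesenchyme markers, among them Col1a1, Pdgfra and Dcn, summed to 19940 to 29580 CPM in bladder E18.5, 4850 to 5845 CPM in urethra E18.5, 1202 to 4778 CPM in bladder E14.5 and 3186 to 7080 CPM in urethra E14.5. The bladder E18.5 libraries thus stood apart from the other 11. They were also highest for the 10 smooth muscle markers (5028 to 12760 CPM, against 1040 to 2353 CPM in urethra E18.5), the 10 endothelial markers (318 to 449 CPM, against 71.8 to 114 CPM) and the 12 immune markers (186 to 256 CPM, against 103 to 128 CPM). No marker of these 4 lists was at 0 in any library.

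In the urethra, genes of replication and of mitosis were lower at E18.5 than at E14.5. In the bladder all 20 mitotic genes had negative values but most did not pass the test, and the 3 inhibitors were higher. At E18.5 the S phase and mitotic genes were all higher in the bladder. Of the 45 genes, 2 were higher and 38 lower in urethra E18.5 than in urethra E14.5, where 33.0% of all genes tested were called, 17.3% higher and 15.7% lower. Between bladder E18.5 and bladder E14.5, 4 were higher and 19 lower, where 40.3% of all genes were called, 19.9% higher and 20.4% lower. The change over stage differed between the tissues for 26 of the 45, all with a larger value in the bladder, where 22.9% of all genes were called, 12.2% in that direction and 10.7% in the other. In bladder E18.5 against urethra E18.5, 37 were higher and 2 lower, where 37.9% of all genes were called, 19.3% higher and 18.6% lower. In bladder E14.5 against urethra E14.5, 13 were higher and 3 lower, where 44.0% of all genes were called, 23.1% higher and 20.9% lower. A gene was called when its Benjamini-Hochberg adjusted p, over all genes tested with edgeR's quasi-likelihood test, was under 0.05.

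**Figure D1:**
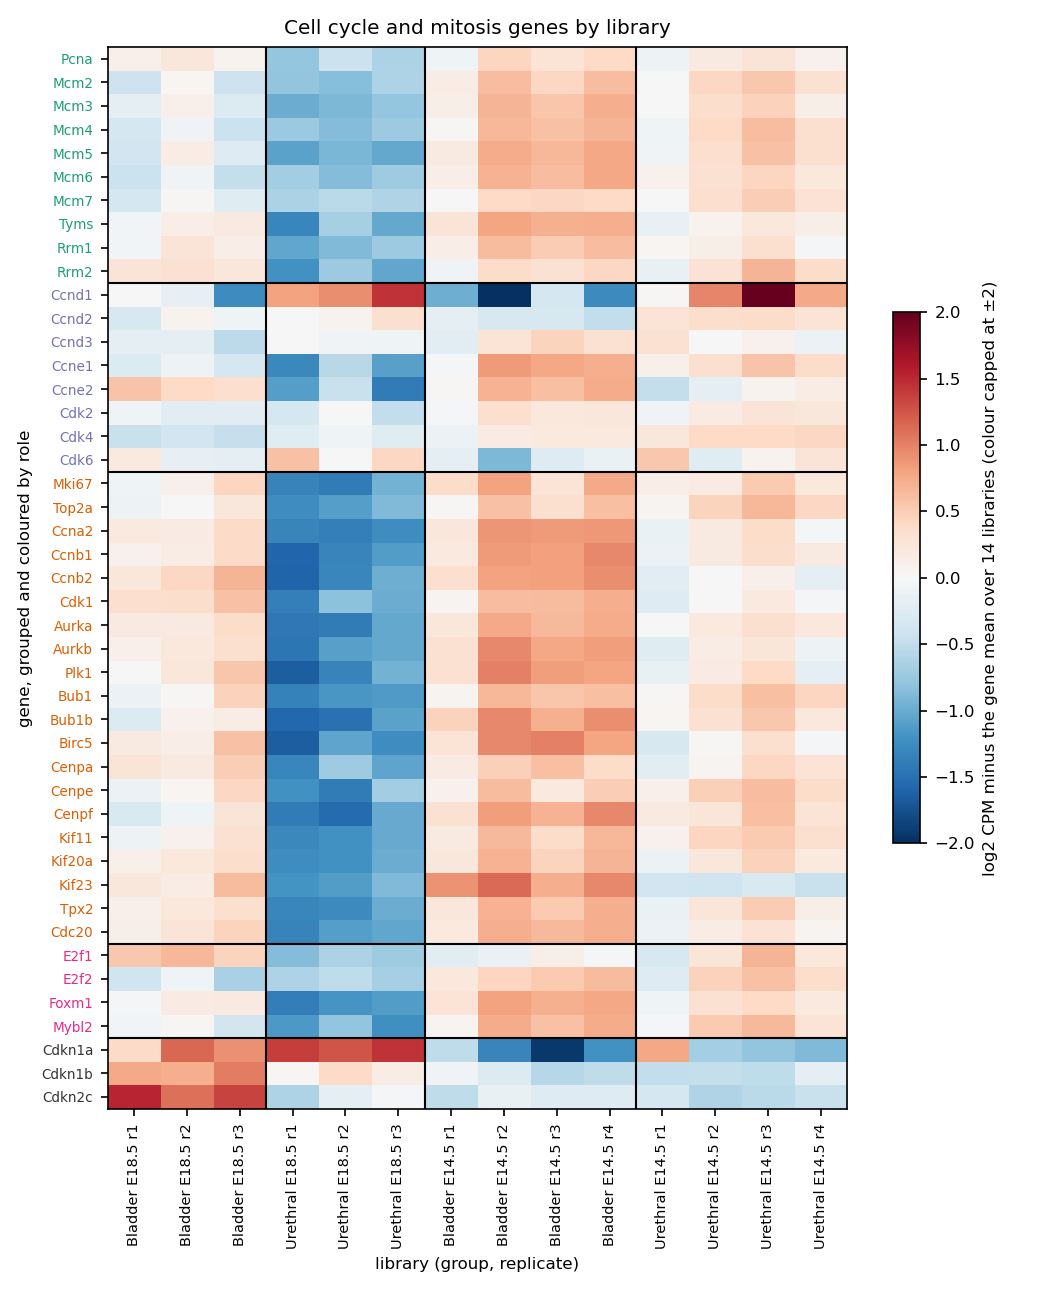
Level of each of the 45 genes in each of the 14 libraries, as log2 CPM minus that gene's mean over the libraries, with colours limited at 2 on either side. Rows are grouped and coloured by role from the S phase genes (top) to the inhibitors (bottom). The 3 urethra E18.5 libraries are blue, thus low, in the S phase and mitosis rows, and the 3 bladder E18.5 libraries are red, thus high, in the Cdkn2c row.

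These calls depend on what the libraries are scaled to and on the share of other cells. When the libraries were scaled on the 7 pan-epithelial genes, the median of all genes moved to -0.985 in bladder against urethra at E14.5 (log2), and 29 of the 45 were lower and 0 higher there. The median of the 45 under that scaling was -0.776. The same scaling put the median of all genes at 0.541 and that of the 45 at 0.206 in bladder E18.5 against E14.5, where 0 were then lower. In urethra E18.5 against E14.5 it put them at -0.757 and -1.98, with 40 of the 45 lower, and in bladder against urethra at E18.5 at 0.356 and 1.59, with 37 higher. With the mean log2 level of the mesenchyme markers as a covariate, 2 were higher and 38 lower in urethra E18.5 against E14.5, the same counts as without it. In bladder against urethra at E18.5, however, 0 of the 45 and only 5 of all 17513 genes passed with the covariate, and the median of the 45 was 1.03 in place of 1.23. Every bladder E18.5 library had more mesenchyme RNA than any urethra E18.5 library, so that tissue and mesenchyme share cannot be told apart at this stage. Every bladder E18.5 library also had more than any bladder E14.5 library, so that stage and mesenchyme share cannot be told apart in the bladder. In bulk tissue a fall in RNA per cell cannot be told apart from a fall in the number of cells that are in cycle.

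Set against gene length, the 45 spanned a wide range of levels. Cdk4, a kinase of G1, was highest, with means of 85.5 CPM per kb in bladder E18.5, 101 in urethra E18.5, 126 in bladder E14.5 and 149 in urethra E14.5. Cdk4 shares 19.7% of its exon bases with Tspan31 on the opposite strand, which had 28.4% of its counts. Ccnd2, a D cyclin, had 66.7, 79.0, 57.2 and 89.5 CPM per kb in the same order of groups. Ccnd2 thus stood far above the other D cyclins Ccnd3, which had 20.5, 24.3, 29.5 and 26.7 CPM per kb, and Ccnd1, which had 15.4, 42.8, 9.18 and 43.5 CPM per kb. Among the mitotic genes, Cdc20 (the activator of the anaphase-promoting complex) and Ccnb2 (cyclin B2) were the highest per length in bladder E18.5, at 49.4 and 46.2 CPM per kb, against 18.2 and 13.9 in urethra E18.5. The lowest at E14.5 was the inhibitor Cdkn2c, with 2.6 CPM per kb in the bladder and 2.27 in the urethra.

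Promoter motifs were unevenly spread over the roles. RefSeq promoter windows of 300 bases (250 before the start site and 50 from it, GRCm38.p6) were matched by symbol for 36 of the 45 genes. Mcm4, Ccnd1, Ccnd2, Ccne2, Ccna2, Aurkb, Kif20a, Tpx2 and Foxm1 had no entry. Both strands were searched for the cell cycle homology region (CHR, TTTGAA or TTCGAA), to which the MuvB complex binds, for the CCAAT box (CCAAT), and for E2F sites (TTTGGCGC, TTTCCCGC, TTTCGCGC or TTTGCCGC). A CHR match stood in 13 of 16 mitotic windows (81.2%) and in 2 of 9 S phase windows (22.2%), where 3827 of all 20783 windows (18.4%) held one. An E2F match stood in 1 of 16 mitotic windows (6.25%) and in 4 of 9 S phase windows (44.4%), where 544 of all windows (2.62%) held one. The CCAAT box was common in both, with 15 of 16 (93.8%) and 8 of 9 (88.9%), where 7957 of all windows (38.3%) held it. None of the 5 G1 cyclin or kinase, 3 transcription factor and 3 inhibitor windows held a CHR match. These windows are too few to set against the share of 18.4% over all windows. The start site of the window lay farthest from the 5′ end of the counted gene for Cdk6 (2408 bases), Mcm7 (539), E2f1 (466) and Cdkn2c (433). A match describes letters in these windows and not binding.

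**Figure D2:**
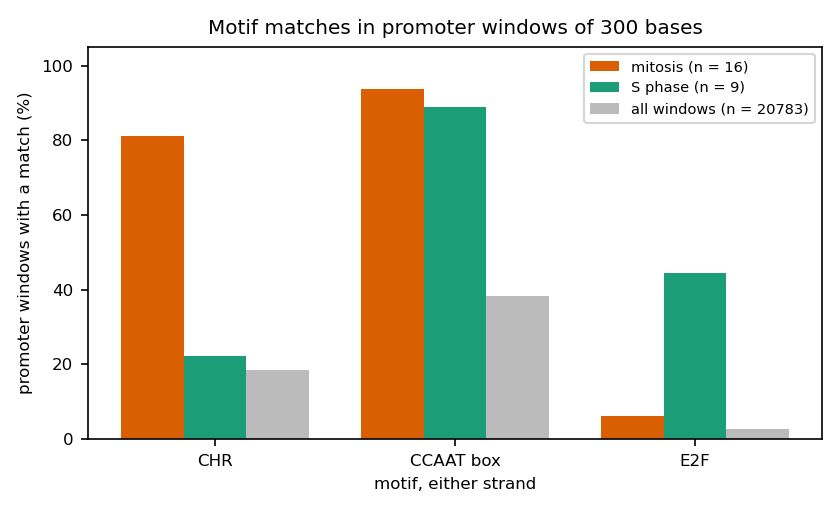
Share of promoter windows of 300 bases with at least 1 match on either strand (percent, bars from 0) for the CHR, the CCAAT box and the E2F sites, in 16 mitotic genes (orange), 9 S phase genes (green) and all 20783 windows (grey). The CHR bar stands at 81.2% for the mitotic and 22.2% for the S phase genes, and the E2F bar at 6.25% for the mitotic and 44.4% for the S phase genes.

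Promoters of 6 members are shown, 170 bases before the start site and 30 from it, read 5′ to 3′ on the strand of the gene, as examples of windows with matches. Mcm5 and Mcm6 are from the 4 of 9 S phase windows with an E2F match and do not stand for the others, of which Tyms held no match of any kind. Capitals mark matches to the CHR, the CCAAT box (ATTGG where it lies on the opposite strand) and the E2F sites. The first 4 are mitotic genes, Cdc20 at chr4:118437314-118437513, Ccnb2 at chr9:70421525-70421724, Kif23 at chr9:61946770-61946969 and Cdk1 at chr10:69352883-69353082, all on the minus strand. The last are the replication helicase genes Mcm5 at chr8:75109339-75109538 on the plus strand and Mcm6 at chr1:128359676-128359875 on the minus strand.
Cdc20: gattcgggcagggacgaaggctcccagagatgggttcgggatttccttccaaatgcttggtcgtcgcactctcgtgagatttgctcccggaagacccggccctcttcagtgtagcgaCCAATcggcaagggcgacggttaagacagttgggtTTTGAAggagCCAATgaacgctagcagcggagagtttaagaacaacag
Ccnb2: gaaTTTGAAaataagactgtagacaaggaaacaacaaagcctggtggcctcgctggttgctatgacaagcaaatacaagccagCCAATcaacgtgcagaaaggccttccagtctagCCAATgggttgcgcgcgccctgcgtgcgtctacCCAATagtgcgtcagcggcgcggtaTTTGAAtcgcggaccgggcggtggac
Kif23: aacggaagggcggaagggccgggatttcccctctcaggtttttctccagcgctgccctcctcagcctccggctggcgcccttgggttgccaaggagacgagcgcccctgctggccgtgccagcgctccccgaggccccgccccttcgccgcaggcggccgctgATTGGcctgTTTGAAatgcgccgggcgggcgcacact
Cdk1: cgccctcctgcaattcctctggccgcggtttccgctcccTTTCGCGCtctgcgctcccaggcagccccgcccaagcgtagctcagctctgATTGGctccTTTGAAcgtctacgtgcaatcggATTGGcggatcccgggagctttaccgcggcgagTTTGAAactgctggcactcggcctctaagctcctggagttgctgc
Mcm5: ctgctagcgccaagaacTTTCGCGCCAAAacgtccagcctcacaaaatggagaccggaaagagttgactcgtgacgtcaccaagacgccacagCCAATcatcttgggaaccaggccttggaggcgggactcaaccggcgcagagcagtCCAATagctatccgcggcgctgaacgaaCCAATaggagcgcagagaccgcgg
Mcm6: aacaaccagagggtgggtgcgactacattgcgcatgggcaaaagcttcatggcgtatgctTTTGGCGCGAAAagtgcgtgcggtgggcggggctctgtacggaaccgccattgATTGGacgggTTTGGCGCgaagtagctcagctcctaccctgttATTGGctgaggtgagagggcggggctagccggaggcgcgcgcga
Cdc20, Ccnb2 and Kif23 show a CHR near the start site with at least 1 CCAAT box upstream of it. Cdk1, which encodes the kinase that drives entry into mitosis, was the mitotic member with both kinds of match, a CHR pair and an E2F site. Mcm5 and Mcm6 show CCAAT boxes and E2F matches with no CHR. In each of them matches on opposite strands overlap and form a near-palindrome, TTTCGCGCCAAA in Mcm5 and TTTGGCGCGAAA in Mcm6.

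All 20 mitotic genes were lower in urethra E18.5 than in urethra E14.5, by 1.61-fold (Kif23) to 3.15-fold (Bub1b), with a median log2 fold change of -1.42. Kif11, the kinesin that pushes the spindle poles apart, had 30.7, 32.5 and 37.4 CPM in urethra E18.5 and 80.2, 102, 108 and 94.0 CPM in urethra E14.5. Its lowest E14.5 library was above its highest E18.5 library by a wide margin (log2 fold change -1.53 ± 0.15 SE, edgeR adjusted p = 7e-05). Aurka, the kinase of the spindle poles, had 14.3, 14.6 and 19.1 CPM in urethra E18.5 and 38.9, 44.4, 48.4 and 44.6 CPM in urethra E14.5, again without overlap (-1.48 ± 0.15, adjusted p = 9.07e-05). The libraries of the stages overlapped for none of the 20, where 18.2% of all genes were lower and 20.0% higher in urethra E18.5 with no overlap. The 3 that fell most were Bub1b (-1.66), Cenpf (-1.64) and Bub1 (-1.61), and the 3 that fell least were Cenpa (-1.17), Cdk1 (-1.04) and Kif23 (-0.69, all log2). Mki67, the coat protein of mitotic chromosomes used as a marker of proliferation, fell to 102 ± 18.2 CPM in urethra E18.5 (SD, n = 3), against 284 ± 36.4 CPM in urethra E14.5 (SD, n = 4).

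In the bladder 6 of the 20 mitotic genes were lower at E18.5, where 20.4% of all genes were lower, and the other 14 did not pass. All 20 values were negative, with a median of -0.334, against a median of 0.211 under pan-epithelial scaling. The 6 were Bub1b, Cenpf, Kif23, Ccnb1, Aurkb and Ccna2. Kif23, the motor of the central spindle that is needed for cytokinesis, had 123, 116 and 162 CPM in bladder E18.5 and 196, 231, 174 and 205 CPM in bladder E14.5. The groups did not overlap, as for 3 of the 20 mitotic genes, where 25.0% of all genes were lower and 21.4% higher in bladder E18.5 with no overlap, and the log2 fold change was -0.56 ± 0.12 (edgeR adjusted p = 0.00251). Bub1b, a kinase-like protein of the spindle checkpoint, had 79.4, 102 and 107 CPM in bladder E18.5 and 133, 187, 158 and 184 CPM in bladder E14.5, also apart (-0.75 ± 0.16, adjusted p = 0.00267). For Ccna2, Ccnb1 and Aurkb the groups overlapped and the sign turned under pan-epithelial scaling (0.10, 0.043 and 0.056). Each lost its call without bladder E18.5 replicates 1 or 2, or bladder E14.5 replicates 2, 3 or 4, with adjusted p from 0.0519 (Aurkb) to 0.101 (Ccnb1). Cdk1 and Cenpa, the centromeric histone, lay closest to no change, at -0.065 ± 0.17 and -0.061 ± 0.17. Bladder E14.5 replicate 1 was the lowest of its group for 38 of the 45 genes, as urethra E14.5 replicate 1 was for 36, and without the bladder library 30 rather than 19 were lower in bladder E18.5.

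The stage change differed between the tissues for 19 of the 20 mitotic genes (of all genes, 12.2% in that direction), with interaction values from 0.72 (Aurkb) to 1.30 (Bub1, log2, bladder change minus urethra change). Kif11 and Aurka had the smallest adjusted p. For Kif11 the bladder libraries held 69.8, 80.3 and 93.3 CPM at E18.5 and 85.0, 118, 96.6 and 119.6 CPM at E14.5, values that overlapped, unlike those in the urethra (interaction 1.20 ± 0.20, edgeR adjusted p = 0.00197). For Aurka they held 43.9, 43.8 and 50 CPM at E18.5 and 45.2, 65.5, 60.8 and 64.9 CPM at E14.5, with overlap as well (1.14 ± 0.20, adjusted p = 0.00253). Calls were lost for Cenpf without bladder E18.5 replicate 3 or urethra E18.5 replicates 1 or 2, with an adjusted p of 0.0508 to 0.056, for Plk1 without 7 and Aurkb without 7 of the 14 libraries left out in turn, and for Birc5 without 10. The largest adjusted p among these, 0.0955 (Plk1), 0.0926 (Aurkb) and 0.0953 (Birc5), came without urethra E18.5 replicate 1. The exception was Kif23, at 0.13 ± 0.17 (adjusted p = 0.619). Over the same libraries the mesenchyme list had 14 of 15 and the smooth muscle list 9 of 10 genes called in the same direction as the mitotic genes, and with the mesenchyme covariate 0 of the 45 members were called higher and 1 lower. That fit called 57 of all 18286 genes. The part of these cells in the interaction was not tested. With pan-epithelial scaling all 45 were called higher, where the median of all genes was 1.29 and that of the 45 was 2.22.

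**Figure D3:**
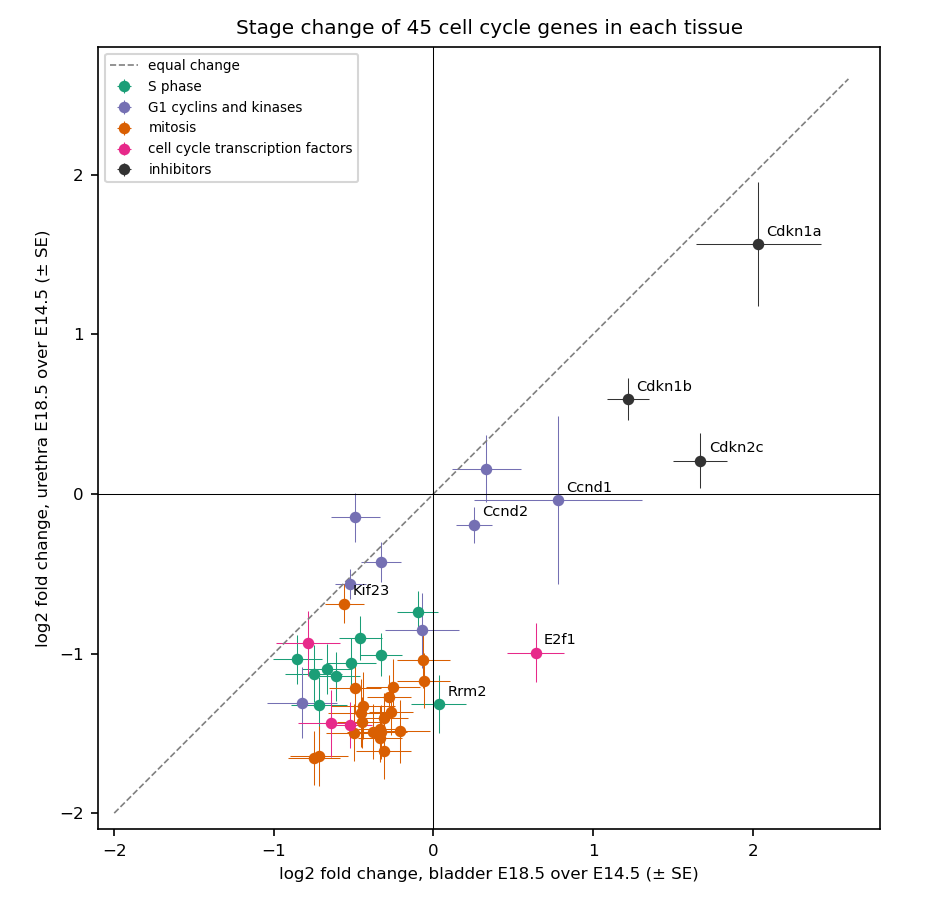
Change from E14.5 to E18.5 of each of the 45 genes in the bladder (x axis) and the urethra (y axis), as log2 fold change with its standard error, coloured by role. The dashed line marks equal change in the tissues. The mitotic genes lie below the line near -1.4 on the urethra axis, Kif23 lies next to the line, and E2f1 lies right of 0 and below 0.

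At E18.5 all 20 mitotic genes were higher in the bladder, by 2.13-fold (Top2a) to 3.26-fold (Ccnb2), with a median log2 fold change of 1.37. Ccna2, cyclin A2 of S phase and G2, had 131, 128 and 147 CPM in bladder E18.5 and 45.3, 43.8 and 47.9 CPM in urethra E18.5. All 3 bladder libraries were far above all 3 urethra libraries (1.55 ± 0.11, edgeR adjusted p = 3.64e-05). Tpx2, which anchors and activates aurora A on the spindle, had 105.2, 114 and 123 CPM in bladder E18.5 and 39.7, 40.5 and 49.2 CPM in urethra E18.5 (1.38 ± 0.12, adjusted p = 0.000108). No mitotic gene overlapped between the tissues at this stage, where 25.7% of all genes were higher and 25.5% lower in the bladder with no overlap. None of the 20 lost its call when any 1 library was left out. The cyclin B genes Ccnb1 and Ccnb2 differed by 2.85-fold and 3.26-fold, and Birc5 and Aurkb, partners in the chromosomal passenger complex, by 3.02-fold and 2.58-fold. Plk1 and Cdc20, which act at entry to and exit from mitosis, differed by 2.9-fold and 2.67-fold.

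Markers of most other cell types checked moved with this difference. Of the mesenchyme markers 12 of 15, and of the smooth muscle and endothelial markers 10 of 10 each, were higher in bladder E18.5. Of 12 immune markers 9 were higher and 1 lower, and of 7 erythroid markers tested 4 were higher and 0 lower. The 6 neural and glial markers went the other way, with negative values for all 6 (median -0.776) but none called. Within bladder E18.5, replicate 3, with the lowest mesenchyme sum (29580, 25440 and 19940 CPM in replicates 1, 2 and 3), had the highest summed level of the 20 mitotic genes (1865, 2007 and 2407 CPM). In urethra E18.5 the mitotic sums were 716, 783 and 923 CPM, rising with the mesenchyme sums of 4850, 5198 and 5845 CPM. Urethra E14.5 replicate 3 had the highest of both sums (2493 and 7080 CPM). Bladder E14.5 replicate 2, by contrast, had the highest mitotic sum (3162 CPM) and the lowest mesenchyme sum (1202 CPM) of its group. Bladder E18.5 replicate 3 also had the highest pan-epithelial sum of its group (3408 CPM), whereas the S phase sum was highest in replicate 2 (1453 CPM). With the mesenchyme covariate the log2 fold change of Ccna2 was 1.89 (adjusted p = 0.0807) and that of Kif23 was 2.05 (adjusted p = 0.111), larger values than without it but not called. The median of the 20 mitotic genes with the covariate was 1.77, and those of the 10 S phase genes and the 4 transcription factors were 0.361 and 0.514, against 0.739 and 1.09 without it. The part of these cells in the difference was not tested.

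**Figure D4:**
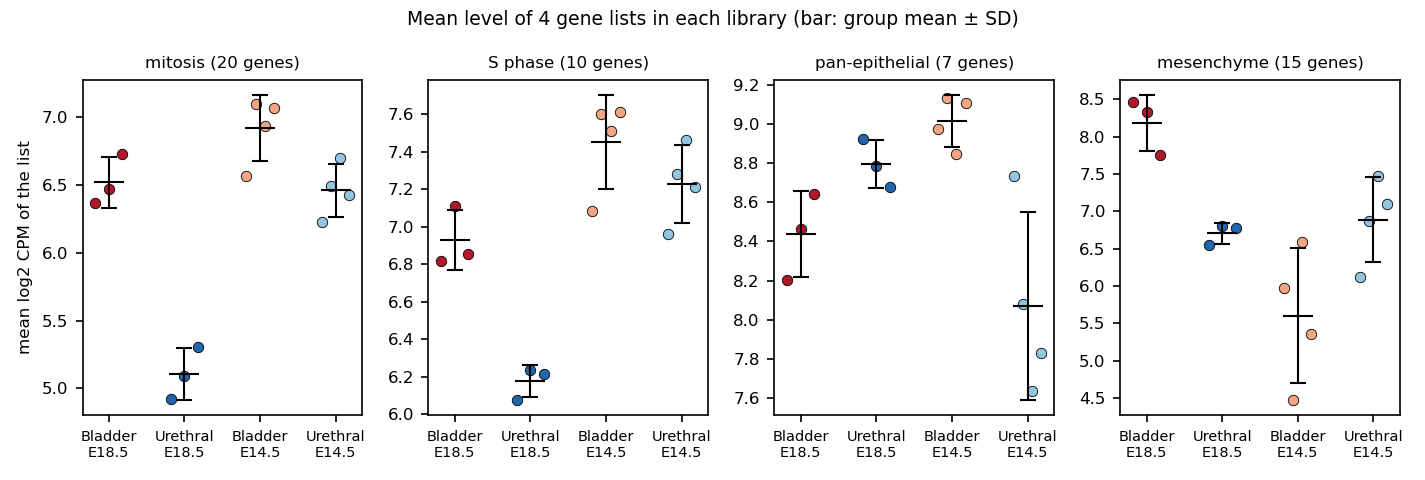
Mean log2 CPM of the 20 mitotic, 10 S phase, 7 pan-epithelial and 15 mesenchyme genes in each library (points), with the group mean and SD (bars). The axes do not start at 0. The urethra E18.5 points are lowest for the mitotic and S phase genes, and the bladder E18.5 points are highest for the mesenchyme genes, with means over the 15 genes of 7.75 to 8.46.

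At E14.5 the bladder was the higher tissue for 11 of the 20 mitotic genes under the main scaling (of all genes, 23.1%), but for 0 under pan-epithelial scaling, which turned the sign of 10 of the 11. Kif23, the exception, had 196, 231, 174 and 205 CPM in bladder E14.5 and 80.1, 79.7, 84.8 and 77.2 CPM in urethra E14.5, a 2.43-fold difference with the groups far apart (1.28 ± 0.084, edgeR adjusted p = 0.000262), and it stayed positive under pan-epithelial scaling (0.31, adjusted p = 0.238). At E18.5 Kif23 had 123, 116 and 162 CPM in the bladder and 46.0, 48.5 and 56.7 CPM in the urethra, 2.62-fold, and the interaction given above did not pass. Ccnb2 had 64.9, 90.5, 91.3 and 98.0 CPM in bladder E14.5 and 44.0, 51.2, 55.7 and 45.2 CPM in urethra E14.5, without overlap (0.77 ± 0.14, adjusted p = 0.00334), and -0.21 under pan-epithelial scaling. Together with Kif23 it remained called with the mesenchyme covariate (0.82, adjusted p = 0.0326 for Ccnb2, and 1.15, adjusted p = 0.00348 for Kif23). The other 9 were Birc5, Aurkb, Plk1, Ccna2, Ccnb1, Cdk1, Bub1b, Cdc20 and Aurka, from 0.38 to 0.73. Of these Birc5 and Aurkb kept their call whichever library was left out, and only Aurkb had no overlap between the tissues, where 22.7% of all genes were higher and 17.4% lower in bladder E14.5 with no overlap. Plk1 lost its call without bladder E14.5 replicate 2 or urethra E14.5 replicate 4, with an adjusted p of 0.0568 to 0.0573. Ccna2, Ccnb1, Cdk1, Bub1b, Cdc20 and Aurka lost it without bladder replicate 2 or 4 or urethra replicate 2 or 4, and Ccnb1, Cdk1 and Aurka also without bladder replicate 3 or urethra replicate 1, as Cdc20 did without bladder replicate 3, with adjusted p from 0.0505 (Ccna2) to 0.127 (Aurka). Pan-epithelial genes were themselves higher in bladder E14.5 (5 of 7 called), and 7 of 15 mesenchyme markers were lower.

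Of the genes of DNA replication, 10 of 10 were lower over stage in the urethra (of all genes, 15.7%) and 7 of 10 in the bladder (of all genes, 20.4%), where pan-epithelial scaling called 0. All 10 were lower in urethra E18.5 than in urethra E14.5, with a median of -1.08, and the stages overlapped for none of them, where 18.2% of all genes were lower with no overlap. Rrm1, the large subunit of ribonucleotide reductase, had 104, 116 and 129 CPM in urethra E18.5 and 219, 232, 266 and 208 CPM in urethra E14.5 (-1.01 ± 0.13, edgeR adjusted p = 0.000293). Mcm5, a subunit of the helicase that unwinds DNA, whose promoter is among those shown, had 66.7, 74.1 and 69.2 CPM in urethra E18.5 and 133, 176, 209 and 175 CPM in urethra E14.5 (-1.32 ± 0.18, adjusted p = 0.000308). The 6 helicase subunits Mcm2 to Mcm7 fell by 1.87-fold (Mcm7) to 2.5-fold (Mcm5).

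In bladder E18.5 against E14.5, 7 of the 10 S phase genes were lower, among them the 6 helicase genes, with a median of -0.565. Mcm6 had 141, 182 and 138 CPM in bladder E18.5 and 208, 309, 294 and 326 CPM in bladder E14.5, without overlap (-0.85 ± 0.15, edgeR adjusted p = 0.00077). Mcm2 had 99.4, 137 and 100.4 CPM in bladder E18.5 and 147, 204, 178 and 203 CPM in bladder E14.5 (-0.67 ± 0.16, adjusted p = 0.00442), again with the groups apart. The seventh was Tyms, the thymidylate synthase gene (-0.52), whose call was lost without bladder E18.5 replicate 1 or bladder E14.5 replicate 2, with an adjusted p of 0.0502 to 0.0634. Mcm7 lost its call without bladder E18.5 replicates 1 or 3, with an adjusted p of 0.0535 to 0.0575. Pcna, the sliding clamp of the polymerases, and the ribonucleotide reductase genes Rrm1 and Rrm2 did not pass, at -0.10 ± 0.13, -0.33 ± 0.13 and 0.034 ± 0.17. Under pan-epithelial scaling none of the 7 was called lower, and Mcm7 and Tyms turned sign (0.086 and 0.026).

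The interaction was called for 3 of the 10 S phase genes, against 19 of 20 mitotic genes, in each case with the larger value in the bladder (of all genes, 12.2%). Rrm2, the small and cell-cycle-controlled subunit of ribonucleotide reductase, had 81.1, 83.8 and 78.8 CPM in bladder E18.5 and 64.5, 87.3, 83.8 and 89.7 CPM in bladder E14.5, which overlapped. In urethra E18.5 it had 29.0, 40.7 and 32.8 CPM, against 60.7, 82.1, 108 and 86.7 CPM in urethra E14.5, which did not (interaction 1.35 ± 0.25, edgeR adjusted p = 0.00316). For Rrm1 the bladder held 206, 256 and 236 CPM at E18.5 and 235, 330.2, 304 and 326 CPM at E14.5 (0.68 ± 0.18, adjusted p = 0.0197). Pcna was the third (0.64, adjusted p = 0.023). The call of Rrm1 was lost without bladder E18.5 replicate 2 or urethra E18.5 replicate 1, with an adjusted p of 0.0577 to 0.064. That of Pcna was lost without bladder E18.5 replicates 1 or 2 or urethra E18.5 replicate 1, with an adjusted p of 0.0572 to 0.0689. The 6 helicase genes lay between 0.18 (Mcm6) and 0.61 (Mcm5), with none called. A retained pseudogene, Pcna-ps2, carried 21.7% as many counts as Pcna, so reads may have been split between them.

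At E18.5 all 10 S phase genes were higher in the bladder, with a median of 0.739, and the tissues overlapped for none of them, where 25.7% of all genes were higher with no overlap. With the mesenchyme covariate the median of the 10 was 0.361 and none was called. Rrm2 differed most, with the values given above (2.35-fold, 1.23 ± 0.13, edgeR adjusted p = 0.000266), followed by Tyms (2.06-fold) and Rrm1 (1.98-fold, adjusted p = 0.00054). The smallest differences were those of Mcm7 (0.39), Mcm6 (0.42), Mcm4 (0.48) and Mcm2 (0.49). Mcm2 lost its call without bladder E18.5 replicate 2 or urethra E18.5 replicates 1 or 2, with an adjusted p of 0.0721 to 0.089. Mcm6 lost it without bladder E18.5 replicate 2 or urethra E18.5 replicates 1, 2 or 3, with an adjusted p of 0.0582 to 0.0937. Mcm7 lost it without bladder E18.5 replicate 2 or urethra E18.5 replicates 1 or 3, with an adjusted p of 0.0694 to 0.0965. At E14.5 only Tyms was called. It had 91.7, 133, 126 and 127 CPM in bladder E14.5 and 69.4, 80.2, 89.1 and 83.5 CPM in urethra E14.5, without overlap (0.53 ± 0.13, adjusted p = 0.0133), but -0.46 under pan-epithelial scaling. Rrm1 came next and did not pass, with 235, 330.2, 304 and 326 CPM in bladder E14.5 and 219, 232, 266 and 208 CPM in urethra E14.5, which overlapped (adjusted p = 0.0636).

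The balance of mitotic to S phase RNA was lowest in urethra E18.5. The mean log2 level of the 20 mitotic genes minus that of the 10 S phase genes was -0.454, -0.645 and -0.124 in bladder E18.5, -1.15, -1.14 and -0.911 in urethra E18.5, -0.514, -0.504, -0.572 and -0.541 in bladder E14.5, and -0.735, -0.787, -0.760 and -0.787 in urethra E14.5. Both sets of genes come from the same libraries, so scaling the libraries differently hardly moves this difference. The bladder libraries lay above the urethra libraries at each stage, and urethra E18.5 lay below urethra E14.5.

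All 4 transcription factors were lower in urethra E18.5 than in urethra E14.5 (of all genes, 15.7%), whereas in the bladder 3 were lower and E2f1 higher (of all genes, 20.4% and 19.9%). Foxm1, an activator of mitotic genes, had 21.9, 25.3 and 26.4 CPM in urethra E18.5 and 53.8, 70.6, 75.3 and 65.7 CPM in urethra E14.5, with no overlap (-1.45 ± 0.14, edgeR adjusted p = 9.07e-05). In the bladder it had 55.9, 64.1 and 64.6 CPM at E18.5 and 69.6, 100.3, 93.9 and 97.8 CPM at E14.5, a smaller fall (-0.52 ± 0.14, adjusted p = 0.00925, but 0.023 under pan-epithelial scaling). The difference between these changes was called (0.93 ± 0.20, adjusted p = 0.00623). At E18.5 Foxm1 was 2.47-fold higher in the bladder (adjusted p = 0.000125), and at E14.5 it did not pass (0.40, adjusted p = 0.0501). Mybl2, which encodes B-Myb, had 9.12, 11.8 and 8.66 CPM in urethra E18.5 and 19.9, 29.1, 32.0 and 24.6 CPM in urethra E14.5 (-1.44 ± 0.21, adjusted p = 0.000495). It also fell in the bladder (-0.64, adjusted p = 0.0224), a call lost without bladder E18.5 replicate 3 or bladder E14.5 replicates 2 or 4, with an adjusted p of 0.0599 to 0.0879.

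E2f1, the E2F activator of replication genes, moved in opposite directions over stage. It had 35.1, 38.1 and 32.8 CPM in bladder E18.5 and 20.9, 21.9, 26.2 and 23.9 CPM in bladder E14.5, all later libraries above all earlier ones (0.64 ± 0.18, edgeR adjusted p = 0.0124). It had 13.1, 15.6 and 14.8 CPM in urethra E18.5 and 19.4, 28.7, 38.6 and 27.9 CPM in urethra E14.5, all later libraries below (-0.99 ± 0.19, adjusted p = 0.00193). The interaction, 1.64 ± 0.26 (adjusted p = 0.00162), was the largest of the 45. The rise in the bladder was lost without bladder E18.5 replicate 2 (adjusted p = 0.054) and with the mesenchyme covariate (-0.067). E2f2 fell in both tissues, to 9.39, 11.7 and 7.91 CPM in bladder E18.5, against 14.4, 16.8, 17.9 and 19.2 CPM in bladder E14.5 (-0.79 ± 0.20, adjusted p = 0.00708). In urethra E18.5 E2f2 had a mean of 8.19 ± 0.466 CPM (SD, n = 3), against 15.5 ± 3.58 CPM in urethra E14.5 (SD, n = 4), and it was the only factor of the 4 not called between the tissues at E18.5 (0.22 ± 0.20).

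**Figure D5:**
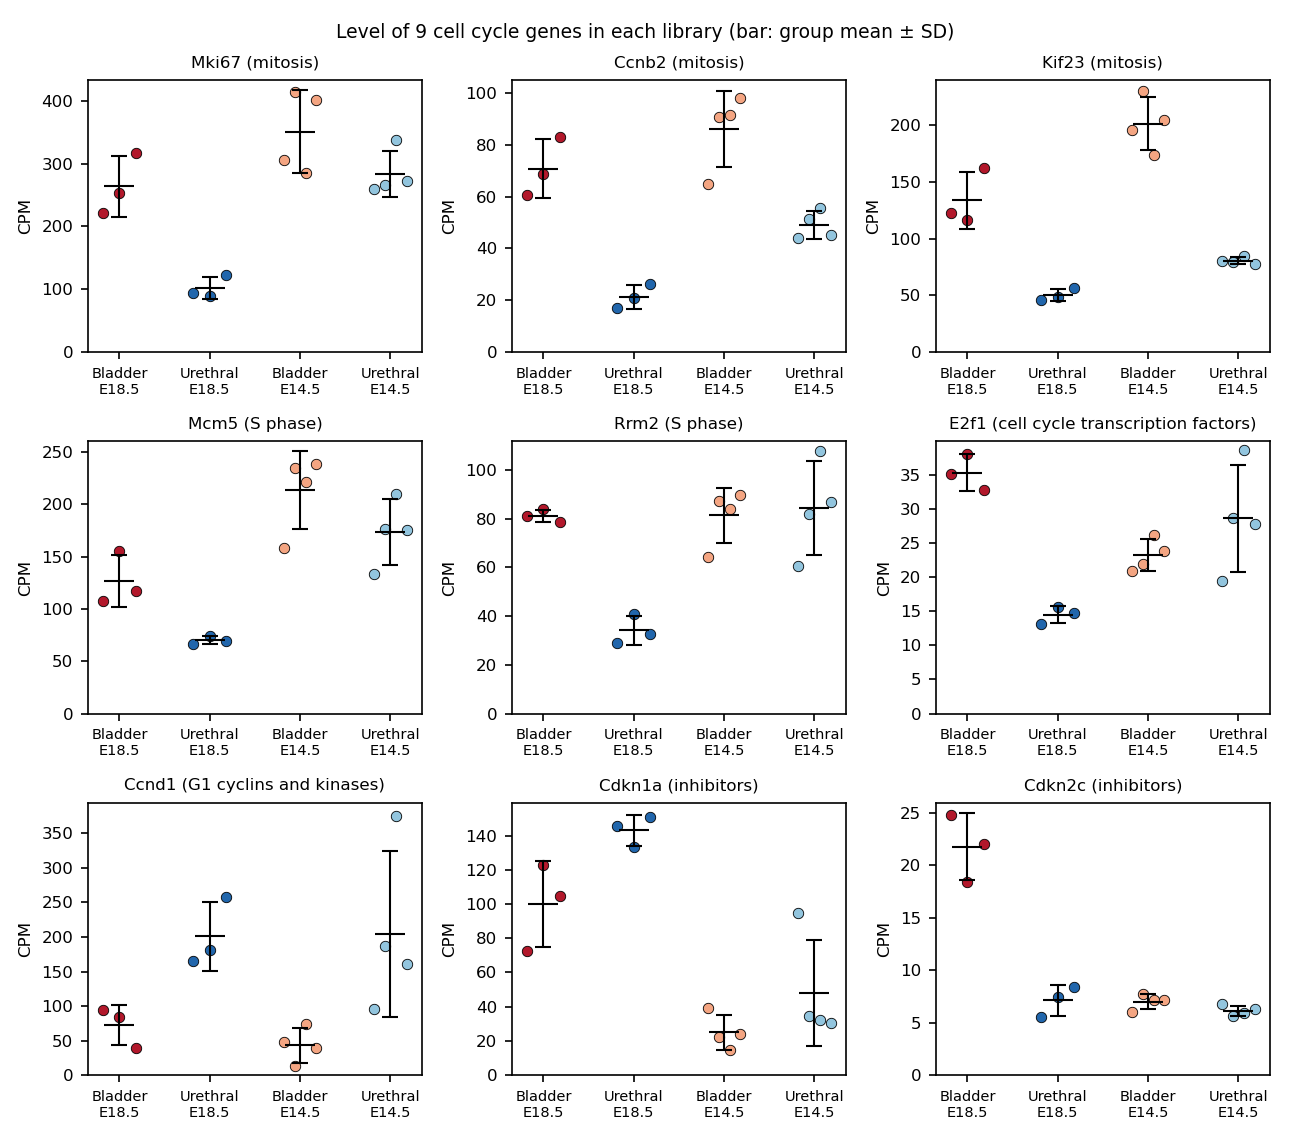
Level of 9 genes in each library in CPM (points, axes from 0), with the group mean and SD (bars), for bladder E18.5, urethra E18.5, bladder E14.5 and urethra E14.5. Cdkn2c is high in bladder E18.5 alone (18.4 to 24.8 CPM), Kif23 is higher in the bladder at both stages, and Ccnd1 is higher in the urethra at both stages.

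Among the 8 G1 genes 4 were lower over stage in the urethra (Ccne1, Ccne2, Cdk2 and Cdk4) and 3 in the bladder (Ccne1, Cdk4 and Ccnd3). Of all genes, 15.7% were lower in the urethra and 20.4% in the bladder. Ccne1, partner of Cdk2, had 8.82, 14.8 and 10.3 CPM in urethra E18.5 and 23.3, 27.2, 32.4 and 28.2 CPM in urethra E14.5 (-1.31 ± 0.23, edgeR adjusted p = 0.00121). It had 18.04, 20.2 and 17.0 CPM in bladder E18.5 and 21.2, 39.2, 37.2 and 36.0 CPM in bladder E14.5 (-0.82 ± 0.22, adjusted p = 0.00955), so that in both tissues the later libraries lay below the earlier ones. Ccne2 had 38.1, 33.8 and 32.4 CPM in bladder E18.5 and 11.9, 18.8 and 9.65 CPM in urethra E18.5, 2.55-fold apart without overlap (1.35 ± 0.23, adjusted p = 0.00256). At E14.5 it was the 1 G1 gene higher in the bladder, with 26.2, 41.6, 39.1 and 42.9 CPM, against 18.4, 22.5, 27.0 and 28.4 CPM in urethra E14.5, which overlapped (0.59 ± 0.19, adjusted p = 0.035, and -0.42 under pan-epithelial scaling). That call was lost without bladder E14.5 replicates 2, 3 or 4 or urethra E14.5 replicates 1 or 2, with an adjusted p of 0.0565 to 0.0968. Ccne2 shares 17.4% of its exon bases with Ints8 on the opposite strand, which had 235% of its counts, and the strand setting of the counting is not given in the sources used here.

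Ccnd1 was higher in the urethra at both stages and Ccnd2 at E14.5. Ccnd1 had 47.8, 12.6, 73.8 and 38.8 CPM in bladder E14.5 and 96.0, 187, 376 and 160.4 CPM in urethra E14.5. The groups did not overlap but spread widely, and Ccnd1 was 4.85-fold lower in the bladder (-2.28 ± 0.58, edgeR adjusted p = 0.0133). At E18.5 it had 93.8, 84.3 and 39.6 CPM in the bladder and 165, 180.5 and 258 CPM in the urethra, again apart (-1.49 ± 0.31, adjusted p = 0.00591). In the single fit of all 14 libraries Ccnd1 was not called between the tissues at E18.5. It did not pass over stage in either tissue (0.78 ± 0.53 in the bladder and -0.038 ± 0.53 in the urethra), but with the mesenchyme covariate it turned sign and was called lower in bladder E18.5 than in bladder E14.5 (-2.36, adjusted p = 0.00884). In bladder E14.5 and urethra E14.5 alike, the library with the most mesenchyme RNA, replicate 3, had the most Ccnd1, and with the mesenchyme covariate the E14.5 difference was -0.73 (adjusted p = 0.102). Within each tissue at E18.5, Ccnd1 also followed the order of the mesenchyme sums. These were 29580, 25440 and 19940 CPM in the bladder and 4850, 5198 and 5845 CPM in the urethra. Between the tissues at E18.5 the bladder had the higher mesenchyme sums and the lower Ccnd1 (72.6 ± 29.0 CPM, against 201 ± 50.1 CPM in the urethra, SD, n = 3 each), and with the covariate the difference was -4.11 (adjusted p = 0.0567). The part of mesenchyme RNA in these differences was not tested. Ccnd1 shares 23.4% of its exon bases with LTO1 on the opposite strand.

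Ccnd2 had 591, 543, 541 and 480.2 CPM in bladder E14.5 and 815, 865, 874 and 814 CPM in urethra E14.5, tight groups with a gap between them (-0.68 ± 0.089, edgeR adjusted p = 0.000876). This call held with the mesenchyme covariate (-0.59, adjusted p = 0.0203). At E18.5 Ccnd2 had 538, 712 and 633 CPM in the bladder and 681, 708 and 842 CPM in the urethra, which overlapped, and it did not pass (-0.27, adjusted p = 0.162). The difference between the stages fell short of the threshold (interaction 0.45 ± 0.16, adjusted p = 0.0572). Ccnd3 was called only in the bladder over stage (-0.49, adjusted p = 0.0211), with overlap, and turned sign under pan-epithelial scaling (0.073). Its call was lost without bladder E18.5 replicate 3 or bladder E14.5 replicates 3 or 4, with an adjusted p of 0.0559 to 0.0751.

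Cdk4, the kinase partner of the D cyclins, had 275, 287 and 272 CPM in bladder E18.5 and 347, 420.2, 432 and 432 CPM in bladder E14.5 (-0.52 ± 0.10, edgeR adjusted p = 0.000879, but 0.03 under pan-epithelial scaling). In the urethra it had 318, 353 and 317 CPM at E18.5 and 440.4, 494, 496 and 501 CPM at E14.5 (-0.57 ± 0.10, adjusted p = 0.00106). The interaction did not pass ( 0.046 ± 0.13, adjusted p = 0.841). At E14.5 Cdk4 was lower in the bladder (-0.28, adjusted p = 0.0434), a call lost without bladder E14.5 replicates 1, 2 or 4 or urethra E14.5 replicates 2, 3 or 4, with an adjusted p of 0.0503 to 0.103. Cdk2 was called only in the urethra over stage (-0.43, adjusted p = 0.0201, but not without urethra E18.5 replicates 1 or 3 or urethra E14.5 replicate 3, where it was 0.0615 to 0.114), and Cdk6, at -0.56 in bladder E14.5 against urethra E14.5, was called in no comparison (adjusted p = 0.0554 there).

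All 3 inhibitors were higher at E18.5 than at E14.5 in the bladder (of all genes, 19.9%), and 2 of them, Cdkn1a and Cdkn1b, in the urethra (of all genes, 17.3%). Cdkn1a, a Cip/Kip inhibitor and target of p53, had 72.8, 123 and 104.6 CPM in bladder E18.5 and 39.0, 22.2, 14.6 and 24.1 CPM in bladder E14.5 (4.1-fold, 2.04 ± 0.39, edgeR adjusted p = 0.00123). In the urethra it had 145, 133 and 151 CPM at E18.5 and 94.5, 34.8, 32.0 and 30.2 CPM at E14.5 (2.96-fold, adjusted p = 0.00842). The later libraries were above the earlier ones in both tissues, although urethra E14.5 replicate 1 lay far above the other 3 of its group. The difference between the changes did not pass (interaction 0.47 ± 0.55, adjusted p = 0.581). Between the tissues Cdkn1a was the inhibitor lower in bladder E18.5 (-0.54, adjusted p = 0.0388), a call lost without bladder E18.5 replicates 1 or 3 or urethra E18.5 replicates 1, 2 or 3, with an adjusted p of 0.0556 to 0.0979. That call was also lost in the single fit of all 14 libraries.

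Cdkn1b, the Cip/Kip inhibitor of cells leaving the cycle, had 119.9, 117 and 145 CPM in bladder E18.5 and 67.6, 58.8, 47.9 and 49.9 CPM in bladder E14.5 (2.32-fold, 1.22 ± 0.13, edgeR adjusted p = 2.88e-05). In the urethra it had 72.4, 92.5 and 78.3 CPM at E18.5 and 50.2, 50.9, 49.7 and 62.0 CPM at E14.5 (1.51-fold, adjusted p = 0.00496, but -0.18 under pan-epithelial scaling). Both tissues were apart over stage. The rise was larger in the bladder (interaction 0.62 ± 0.19, adjusted p = 0.0309), a call lost without bladder E18.5 replicates 1 or 3, bladder E14.5 replicate 4, urethra E18.5 replicates 1 or 3, or urethra E14.5 replicate 4, with an adjusted p of 0.0629 to 0.0936. Cdkn1b in bladder E18.5 was 1.55-fold above urethra E18.5 (adjusted p = 0.00648).

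Cdkn2c, an Ink4 inhibitor of Cdk4 and Cdk6, had 24.8, 18.4 and 22.0 CPM in bladder E18.5 and 5.99, 7.69, 7.13 and 7.15 CPM in bladder E14.5 (3.19-fold, 1.67 ± 0.17, edgeR adjusted p = 1.81e-05). In urethra E18.5 it had 5.53, 7.44 and 8.38 CPM, against 6.72, 5.62, 5.86 and 6.24 CPM in urethra E14.5, which overlapped (0.21 ± 0.17, adjusted p = 0.38). Cdkn2c in bladder E18.5 lay above every other library, 3.01-fold above urethra E18.5 (1.59 ± 0.21, adjusted p = 0.000677), and the interaction was called (1.46 ± 0.24, adjusted p = 0.00203). In the bladder over stage the 3 inhibitors stayed called with the mesenchyme covariate, at 3.23, 1.29 and 1.80 for Cdkn1a, Cdkn1b and Cdkn2c, and with pan-epithelial scaling. The covariate cannot separate stage from mesenchyme share there, because every bladder E18.5 library had more mesenchyme RNA than any bladder E14.5 library. At E18.5 between the tissues the values with the covariate were 1.001 for Cdkn1b and 1.18 for Cdkn2c, not called (adjusted p = 0.354 and 0.493). At E14.5 none of the inhibitors was called between the tissues. Cdkn1b and Cdkn2c had their highest level of the 4 groups in bladder E18.5, where 6 of the 20 mitotic genes were lower than in bladder E14.5 (of all genes, 20.4%) and none was higher. All 20 mitotic genes were, however, higher there than in urethra E18.5, where Cdkn1b and Cdkn2c had lower means (81.05 and 7.12 CPM). A link between the inhibitors and the mitotic genes was not tested.

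Other genes of these pathways, 128 in 5 lists, were read in the same way. Of all genes, 17.3% were called higher and 15.7% lower in the urethra over stage, and 19.9% and 20.4% in the bladder. Between the tissues the shares were 19.3% and 18.6% at E18.5, and 23.1% and 20.9% at E14.5. For the interaction they were 12.2% and 10.7%. Of 51 further mitotic genes 49 were lower in urethra E18.5 than in urethra E14.5 and 0 higher, led by Espl1 (separase, -1.60, edgeR adjusted p = 0.000105), Aspm (-1.54) and Pbk (-1.17). In the bladder 12 were lower and 1 higher over stage, led by Cdca8 of the chromosomal passenger complex (-0.70, adjusted p = 0.00281). Those 12 of 51 were close to the 20.4% of all genes called lower there. The 1 higher was Anln, an actin-binding protein of the cleavage furrow (0.70, adjusted p = 0.00382). The interaction was called for 40 of the 51, with Anln at its head (1.60, adjusted p = 0.000979). At E18.5, 47 were higher in the bladder, led by Ube2c, the ubiquitin-conjugating enzyme of the anaphase-promoting complex (1.49, adjusted p = 3.8e-05), and 1 lower, the centromeric histone chaperone Hjurp (-0.38, adjusted p = 0.0475). At E14.5, 16 were higher and 0 lower, but under pan-epithelial scaling 0 were higher and 30 lower. The same scaling called 0 lower and 3 higher in the bladder over stage, and 50 lower in the urethra.

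Of 35 further S phase genes 34 were lower in urethra E18.5 than in urethra E14.5, led by the polymerase gene Pole (-1.40, edgeR adjusted p = 0.000115) and Tk1, thymidine kinase (-1.11, adjusted p = 0.000135). In the bladder 21 were lower over stage, led by the histone chaperone Chaf1a (-0.94, adjusted p = 0.000244) and the maintenance methyltransferase Dnmt1 (-0.96, adjusted p = 0.000248). Against these Rpa1, of the single-strand binding complex, was higher in the bladder (0.59, adjusted p = 0.00252). The interaction was called for 8 of the 35, with Tk1 and Rpa1 at 1.13 each. At E18.5, 24 were higher in the bladder and 0 lower, with Rpa1 (1.28, adjusted p = 7.01e-05), Tk1 (1.59) and the licensing inhibitor Gmnn (1.04) first. At E14.5, 8 were higher and 0 lower, with the clamp loader Rfc5 first (1.03, adjusted p = 0.000281) and the licensing factor Cdc6 next (1.27). Those 8 of 35 were close to the 23.1% of all genes called higher there. Pan-epithelial scaling called 0 higher and 25 lower there, 1 higher and 0 lower in the bladder over stage, and all 35 lower in the urethra over stage.

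Within the E2F, MuvB and Myc list, 2 Myc and Myb family genes were far lower in the bladder. Mycn had a mean of 6.83 ± 3.07 CPM in bladder E14.5 and 100.2 ± 23.6 CPM in urethra E14.5 (SD, n = 4 each), -3.92 on the log2 scale (edgeR adjusted p = 0.000309). Myb had 1.32 ± 0.539 CPM in bladder E14.5 and 11.7 ± 2.13 CPM in urethra E14.5 (-3.19, adjusted p = 0.000438). Both remained lower in bladder E18.5 (-1.84 for Mycn and -2.04 for Myb). Myc was higher in bladder E14.5 (1.48, adjusted p = 0.000715). Over stage it fell in the bladder (-0.48, adjusted p = 0.0419, but 0.086 under pan-epithelial scaling) and rose in the urethra (0.94, adjusted p = 0.00169), with a called difference (interaction -1.42, adjusted p = 0.00245). Under pan-epithelial scaling none of these Myc calls passed, at 0.52 in bladder against urethra at E14.5, 0.18 in the urethra over stage and -0.10 for the interaction. Of the 17 genes of the list, 11 were lower and 2 higher over stage in the urethra, with the atypical repressors E2f8 (-1.05) and E2f7 (-1.46) among the lower. In the bladder 7 were lower and 0 higher, with E2f3 first (-1.004, adjusted p = 1.86e-05). At E18.5, 6 were higher in the bladder and 3 lower (of all genes, 19.3% and 18.6%). At E14.5, 5 were higher and 4 lower (of all genes, 23.1% and 20.9%). The interaction was called for 3 in the direction of the bladder and for 2 in the other. Under pan-epithelial scaling 13 of the 17 were lower in bladder E14.5 and 0 higher, in the bladder over stage 0 were lower and 2 higher, and in the urethra over stage 15 were lower and 0 higher.

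Of 11 further inhibitors and pocket proteins tested, 3 were higher and 1 lower in bladder E18.5 than in bladder E14.5 (of all genes, 19.9% and 20.4%). Ccng2, a cyclin of cells that have left the cycle, rose (1.20, edgeR adjusted p = 2.64e-05) and so did the pocket protein gene Rbl2 (0.86) and the Ink4 gene Cdkn2d (0.76), whereas Fzr1, the G1 activator of the anaphase-promoting complex, fell (-0.67, and -0.13 under pan-epithelial scaling). In the urethra 4 were higher and 2 lower (of all genes, 17.3% and 15.7%), with Cdkn2b, another Ink4 gene, the largest (1.71, adjusted p = 0.00864, and 1.18 under pan-epithelial scaling, where it was the 1 still higher). At E18.5, 1 was higher in the bladder, Rbl1 (0.78), and 3 were lower, with the antiproliferative gene Btg1 first (-1.24, adjusted p = 8.13e-05). At E14.5, 1 was higher, Fzr1 (0.51, but -0.45 under pan-epithelial scaling), and 2 were lower, Ccng2 (-1.27) and the Cip/Kip gene Cdkn1c (-0.78). Pan-epithelial scaling called 3 higher and 1 lower in bladder E18.5 against urethra E18.5, and 0 higher and 7 lower in bladder E14.5 against urethra E14.5. The interaction was called for Ccng2 (1.18) and Rbl1 (0.57).

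Among Trp53 and its targets, Cdkn1a apart, Ccng1 and Phlda3 were higher over stage in both tissues and Trp53 was lower in both, under the main scaling. Of 12 genes tested, 5 were higher and 1 lower in bladder E18.5 than in bladder E14.5 (of all genes, 19.9% and 20.4%). Plk2 was higher (1.65, edgeR adjusted p = 2.57e-05), as were Eda2r (2.37, adjusted p = 0.000881) and Ccng1 (0.96, adjusted p = 0.000785), and Trp53, which encodes p53, was lower (-0.57, adjusted p = 0.00145, and -0.012 under pan-epithelial scaling). In the urethra 2 were higher, Phlda3 (0.72) and Ccng1 (0.59), and 2 lower, with Ccng1 at -0.12 and Phlda3 at 0.031 under pan-epithelial scaling. These urethra counts of 12 genes were close to the shares over all genes, 17.3% higher and 15.7% lower. The changes of Plk2 and Eda2r differed between the tissues (interaction 1.93, adjusted p = 0.000579, and 1.97, adjusted p = 0.0341). Between the tissues 3 were higher and 3 lower in bladder E18.5 (of all genes, 19.3% and 18.6%). For bladder E14.5 the counts were 1 higher and 4 lower (of all genes, 23.1% and 20.9%). Under pan-epithelial scaling these counts were 6 and 1 at E18.5 and 0 and 10 at E14.5.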

How the data were processed

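RNA-seq of embryonic mouse bladder and urethral epithelium was used as deposited: the authors' tables give raw read counts for 55228 gene symbols in 14 libraries, with gene lengths. Per the labels' protocols, libraries were made from 60 ng of total RNA with a directional poly(A) kit and read as 100 bp pairs. HISAT2 2.2.1, SAMtools 1.9 and GRCm38 are named in the submitters' processing notes. How reads were counted, with what strand setting and on which gene annotation, could not be read from the sources used here.

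The deposited counts were tested with edgeR 4.0.16 (limma 3.58.1, R 4.3.3) by its quasi-likelihood test, with trimmed mean of M values scaling, filterByExpr and Benjamini-Hochberg adjusted p under 0.05 over all genes tested. Tissue tests used the libraries of that stage, and stage and interaction tests used all 14. Log2 CPM used a prior count of 2. The self-test on simulated counts was run with the same code. Alternatives were DESeq2 1.42.0, its size factors within edgeR, scaling on 7 pan-epithelial genes, no filter, a mesenchyme covariate (the mean log2 CPM of 15 markers), a replicate block, 1 fit of all 14 libraries for tissue tests and leaving out each library. The 45 members and all lists were chosen with earlier results of these data known. Within each role group and comparison the genes with the 2 smallest adjusted p, the genes called against the majority and all inhibitors are given by library; of each list of other pathway genes, those with the smallest adjusted p are named, and others were named after their values were seen.

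Library totals of 21.1 to 36.8 M counts set the precision of low genes. The extraction notes name 3 litters per sample type, whereas the labels list 4 libraries per tissue at E14.5. Nothing else says how libraries relate to litters, so p-values measure the spread between these libraries. Replicates differed by more than sampling noise. Same-numbered bladder and urethra libraries did not deviate together in every pair, so the numbers were not taken as pairs. So few libraries cannot exclude a pairing, and a fit with a replicate block is given among the alternatives. Levels between genes were compared only per kb of the deposited gene length.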

Additional observations from a re-analysis of the deposited data

Results flagged for a closer look

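Of 90 groups of 4 libraries tested for a library far from the others (45 genes in 2 groups), 8 were picked out, where chance gives about 1 in 20. Bladder E14.5 replicate 1 was low for Mcm4 (138 CPM, the others 205 to 217), Mcm7 (134 CPM, the others 178 to 181), Cdk4 (347 CPM, the others 420 to 433) and Ccna2 (133 CPM, the others 204 to 208). Urethra E14.5 replicate 1 was low for Cdk4 (440 CPM, the others 494 to 501) and high for Cdkn1a (94.5 CPM, the others 30.2 to 34.8). Urethra E14.5 replicate 3 was high for Mki67 (338 CPM, the others 259 to 272), and urethra E14.5 replicate 4 for Cdkn1b (62 CPM, the others 49.7 to 50.9).

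The change over stage differed between the tissues for 26 genes by edgeR's interaction term, all with the larger value in the bladder (log2, bladder change minus urethra change). For genes of replication it was 0.64 for Pcna, 0.68 for Rrm1 and 1.35 for Rrm2. Among cyclins, kinases and checkpoint genes it was 0.98 for Ccna2, 0.996 for Ccnb1, 0.96 for Ccnb2, 0.98 for Cdk1, 1.14 for Aurka, 0.72 for Aurkb, 0.92 for Plk1, 1.30 for Bub1, 0.91 for Bub1b, 0.89 for Birc5 and 0.996 for Cdc20. Among genes of chromosomes, kinetochores and the spindle it was 1.11 for Mki67, 1.17 for Top2a, 1.11 for Cenpa, 1.28 for Cenpe, 0.92 for Cenpf, 1.20 for Kif11, 1.10 for Kif20a and 1.09 for Tpx2. For the regulators it was 1.64 for E2f1, 0.93 for Foxm1, 0.62 for Cdkn1b and 1.46 for Cdkn2c. With the mesenchyme covariate none of these 26 was called, at 0.86 for E2f1, 1.60 for Cdkn2c and 1.34 for Bub1. Kif20a shares 29.3% of its exon bases with Cdc23 on the opposite strand, and Ccna2 shares 12.5% with Exosc9 in the same way.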

How the results depend on the processing

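Genes of the 45 called higher and lower numbered 37 and 2 in bladder against urethra at E18.5, 13 and 3 in the E14.5 comparison, 4 and 19 in bladder E18.5 against E14.5, 2 and 38 in urethra E18.5 against E14.5, and 26 and 0 for the interaction. DESeq2, its size factors within edgeR and no filter kept these counts within 1.5 times. Scaling on pan-epithelial genes gave 37 and 1, 0 and 29, 6 and 0, 1 and 40, and 45 and 0 in the same order, and of all genes called it moved the share that was higher to 79.4%, 4.56%, 95.2%, 10.6% and 97.7%, against 50.8%, 52.5%, 49.5%, 52.3% and 53.4%. The mesenchyme covariate gave 0 and 0, 2 and 1, 3 and 1, 2 and 38, and 0 and 1. The cause of these shifts was not tested. A single fit of all 14 libraries gave 5 lower for the earlier stage and 0 lower for E18.5.

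Leaving out 1 library gave 33 to 37 higher and 1 to 2 lower at E18.5, 5 to 17 higher and 2 to 4 lower for the earlier stage, 3 to 5 higher and 14 to 30 lower in the bladder over stage, 2 to 2 higher and 36 to 38 lower in the urethra over stage, and 19 to 32 higher and 0 to 0 lower for the interaction. At E14.5 the count of higher genes was 5 without bladder replicate 2, 8 without bladder replicate 3, and 6 without bladder replicate 4, urethra replicate 2 or urethra replicate 4. In the bladder over stage 30 were lower without bladder E14.5 replicate 1, and at E18.5 1 gene was lower without bladder replicate 1 or 3 or urethra replicate 1 or 3.

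The replicate block gave 35 and 2, 16 and 5, 5 and 23, 2 and 38, and 30 and 0. Same-numbered bladder and urethra libraries had correlations of their deviations of 0.123, -0.136 and -0.186 at E18.5, and of 0.159, 0.134, 0.441 and -0.122 for the earlier stage. Not every pair deviated together, and not every library correlated best with its own number, so the numbers were not used as pairs, and whether they mark shared litters is not given.

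Single genes changed sign, with at least 1 of the values past the threshold, in 44 cases. Under pan-epithelial scaling at E14.5 the log2 values were Pcna -0.88, Mcm2 -0.92, Mcm3 -0.74, Mcm4 -0.88, Mcm5 -0.76, Mcm6 -0.72, Tyms -0.46, Rrm1 -0.65, Ccnd3 -0.82, Ccne1 -0.78, Ccne2 -0.42, Cdk2 -0.98, Mki67 -0.74, Ccna2 -0.41, Ccnb1 -0.46, Ccnb2 -0.21, Cdk1 -0.50, Aurka -0.61, Aurkb -0.33, Plk1 -0.36, Bub1 -0.94, Bub1b -0.54, Birc5 -0.27, Cenpa -0.79, Kif11 -0.92, Kif20a -0.74, Cdc20 -0.55, E2f2 -0.92, Mybl2 -0.87, Cdkn1b -0.93 and Cdkn2c -0.79. In bladder E18.5 against E14.5 they were Mcm7 0.086, Tyms 0.026, Ccnd3 0.073, Cdk4 0.0304, Ccna2 0.10, Ccnb1 0.043, Aurkb 0.056 and Foxm1 0.023 under that scaling, and Ccnd1 -2.36 and E2f1 -0.067 with the mesenchyme covariate. In urethra E18.5 against E14.5 it was Cdkn1b -0.18 under the scaling, and for the interaction Ccnd3 0.96 under the scaling and Ccnd1 -2.70 with the covariate. Of the other values for single genes, 2935 kept direction and side of the threshold, 98 passed where the value reported had not, and 253 no longer passed.

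The depth of 21.1 to 36.8 M counts limits the lowest genes, of which Cdkn2c and E2f2 held the fewest counts per length at E14.5. With 3 or 4 libraries a group, genes that did not pass are not shown to be equal. Tissue and the share of other cells cannot be told apart at E18.5, nor can stage and the mesenchyme share in the bladder.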
